A study of Mus musculus with 6 samples.

Results

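The genes described here are 47 members of the transforming growth factor beta (TGF-beta) and bone morphogenetic protein (BMP) pathways, taken by gene symbol from the 54429 rows of each of 6 RNA-seq count files from mouse prefrontal cortex (PFC). The list holds 13 genes entered as ligands, 11 receptors, 8 Smads, 7 secreted antagonists or binding proteins, 4 latent TGF-beta binding proteins and 4 Id genes. Of the 47 genes, 46 had enough counts to be tested, and Fstl3, a secreted activin-binding protein, had 4 to 12 counts per library and was not. All mice were 6 months old, and each of the 3 groups had 2 libraries. WT mice were of the mixed C57BL/6 x C3H background and received vehicle. Tau mice carried the PS19(P301S) transgene, a mutant human tau, on that background and received vehicle. UNC0642-treated Tau mice carried the same transgene and received UNC0642, an inhibitor of the histone methyltransferases EHMT1 and EHMT2, by intraperitoneal injection. The question was which of these genes differed in Tau mice and whether their levels differed after treatment. The PS19 transgene is driven by the prion protein promoter, and each library came from bulk tissue, so that a lower value cannot be assigned to fewer cells of a type or to less RNA per cell.

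Members of the TGF-beta superfamily are secreted ligands that bring together a type I and a type II serine/threonine kinase receptor. TGF-beta and activin ligands signal mainly through Smad2 and Smad3, BMP ligands through Smad1, Smad5 and Smad9, and both use the shared partner Smad4, while Smad6 and Smad7 are inhibitory. TGF-beta is secreted in a latent complex that latent TGF-beta binding proteins anchor in the extracellular matrix, BMPs are held back by antagonists such as noggin and chordin, and the Id genes are classical BMP targets. In the adult brain the pathway is known for its part in microglial identity, in the vessel wall and meninges, and in the maturation of oligodendrocytes and astrocytes.

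The libraries held 17005664 to 28972176 counts, and 3 counts corresponded to 0.107 to 0.178 CPM, the usual depth-scaled count. CPM were scaled by the trimmed mean of M values (TMM), values per length are RPKM (CPM per kilobase of exon), and differences are log2 fold changes from edgeR's quasi-likelihood fit across 20409 genes. Following the threshold used in the study, a gene was called where the unadjusted p was under 0.05 and the fold change at least 1.2. The Benjamini-Hochberg adjusted p over all genes is printed beside it, and with genes of low counts left out and all 6 libraries in the fit, 0 members reached an adjusted p under 0.05 by edgeR in any comparison. The labels do not give the sex of the mice. Xist, the X-inactivation transcript, was at 191 to 317 CPM in WT replicate 2 and both Tau libraries and at 0.118 to 0.197 CPM in the library labelled WT replicate 1 and both UNC0642 libraries, and 4 Y-linked genes showed the opposite pattern. UNC0642 treatment therefore cannot be told apart from the Xist pattern in the comparison with Tau mice. Prnp, whose promoter drives the transgene, was at 1652 CPM in the library labelled WT replicate 1, against 873 CPM in WT replicate 2 and 1470.3 to 1694 CPM in the 4 transgenic libraries, and Mapt, the mouse tau gene, was at 576, 449 and 571 to 614 CPM in the same order. These values do not settle whether the library labelled WT replicate 1 came from a WT mouse, which bears on every comparison with WT. Results that rest on it are therefore also given without it, which leaves libraries of 1 Xist pattern in the comparison of Tau with WT mice.

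**Figure D1:**
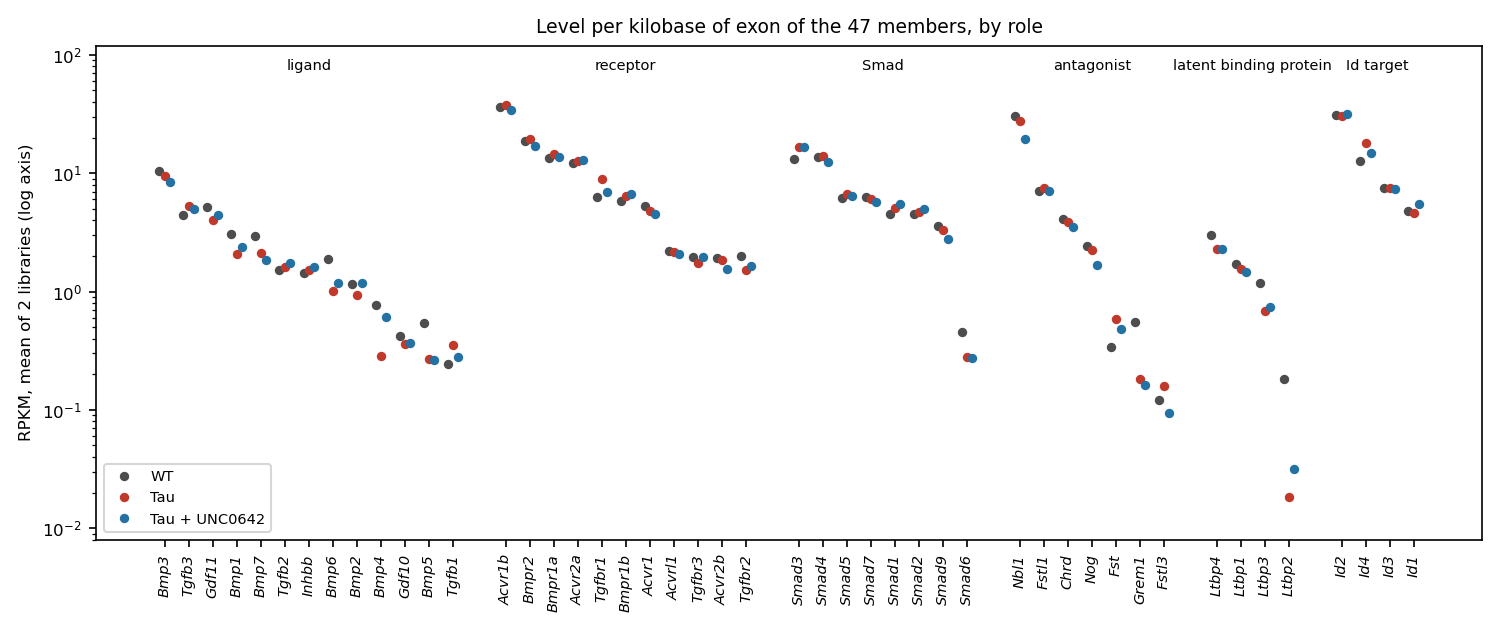
Level of all 47 genes per kilobase of exon (RPKM, log axis), ordered within each role from high to low, with a point for the mean of the 2 libraries of each group. Acvr1b, Id2 and Nbl1 were highest, at 36.0, 31.1 and 25.8 RPKM over the 6 libraries, and the ligands were mostly below the receptors and Smads.

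Compared per length over the 6 libraries, the receptors ran from 1.72 RPKM (Tgfbr2) to 36.0 RPKM (Acvr1b, an activin type I receptor), while the ligands ran from 0.292 RPKM (Tgfb1) to 9.41 RPKM (Bmp3). Tgfb3 stood at 4.87 RPKM and Tgfb2 at 1.63 RPKM, so that Tgfb1 was the lowest of the 3 TGF-beta ligands. Smad3 and Smad4 led the Smads at 15.4 and 13.4 RPKM, and the inhibitory Smad6 was lowest at 0.337 RPKM. Nbl1, a secreted BMP antagonist, was at 25.8 RPKM, Ltbp4 led the latent binding proteins at 2.52 RPKM, and Ltbp2 was lowest of all members at 0.0775 RPKM.

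To show the sequence upstream of members that were called in Tau mice in each direction, the 250 bases before the RefSeq start of 2 genes called lower (Ltbp3, Tgfbr2) and 2 called higher (Tgfbr1, Id4) are printed 5′ to 3′ on the strand of the gene in GRCm38.p6. That is the minus strand for Tgfbr2 and the plus strand for the other genes, and none of these stretches overlapped an exon annotated in GENCODE M21. Capitals mark GGCGCC, a letter string of GC-rich BMP-responsive Smad sites, and CAGAC or its reverse complement GTCTG, the Smad-binding element.
Ltbp3, chr19:5740650-5740899: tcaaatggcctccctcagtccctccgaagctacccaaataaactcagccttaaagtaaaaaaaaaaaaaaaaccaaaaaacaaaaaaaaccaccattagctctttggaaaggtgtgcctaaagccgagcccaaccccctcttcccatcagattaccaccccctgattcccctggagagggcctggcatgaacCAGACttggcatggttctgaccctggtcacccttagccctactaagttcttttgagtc
Tgfbr2, chr9:116175364-116175613: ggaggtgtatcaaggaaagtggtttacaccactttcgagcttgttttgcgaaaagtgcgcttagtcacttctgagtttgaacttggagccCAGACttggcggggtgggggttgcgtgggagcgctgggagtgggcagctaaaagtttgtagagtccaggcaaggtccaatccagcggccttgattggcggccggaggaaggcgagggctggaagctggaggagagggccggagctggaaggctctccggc
Tgfbr1, chr4:47352972-47353221: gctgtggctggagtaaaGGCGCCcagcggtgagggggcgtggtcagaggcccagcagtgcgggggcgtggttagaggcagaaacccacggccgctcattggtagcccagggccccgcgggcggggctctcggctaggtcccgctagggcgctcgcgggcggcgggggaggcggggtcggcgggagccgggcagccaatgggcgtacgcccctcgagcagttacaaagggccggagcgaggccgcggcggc
Id4, chr13:48260866-48261115: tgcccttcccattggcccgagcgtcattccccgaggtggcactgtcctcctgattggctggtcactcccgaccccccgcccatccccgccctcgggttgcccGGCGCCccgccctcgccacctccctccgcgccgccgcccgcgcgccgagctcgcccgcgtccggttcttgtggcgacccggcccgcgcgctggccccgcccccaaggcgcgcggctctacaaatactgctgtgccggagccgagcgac

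In these stretches GGCGCC was found once each before Tgfbr1 and Id4 and CAGAC once each before Ltbp3 and Tgfbr2. These genes are examples, and other called members held neither string, as given below. The genes called in Tau mice with every library left out in turn, described further on, lie on GRCm38 at chr14:70474558-70520234 (Bmp1, minus strand), chr19:5740904-5758532 (Ltbp3, plus strand), chr4:47353222-47414931 (Tgfbr1, plus strand) and chr13:48261228-48266026 (Id4, plus strand). Nbl1 lies at chr4:139082284-139092993 on the minus strand.

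RefSeq promoter windows of 300 bases, from 250 before to 50 after the start, were given for 34 of the 47 members and for 27025 genes in all. Only the first listed start of each gene was used, and some windows, such as that of Bmpr1b, lie within the annotated gene. On either strand, GGCGCC was present in 12% of all promoters and in 12 of the 34 members' promoters (35.3%), and CAGAC in 49.7% of all promoters and in 16 of 34 (47.1%). The palindromic Smad site GTCTAGAC, which itself contains neither string, was in 0.211% of all promoters and 1 of 34. Among members called in Tau mice, GGCGCC was in 0 of 7 promoters of genes called lower and in 2 of 3 of genes called higher, and CAGAC in 5 of 7 and 0 of 3. Among tested members not called, each of these strings was in 10 of 23. The windows of Bmp4, Ltbp4 and Smad3 held neither. The median number of CpG dinucleotides per window was 7 over all promoters, 27 over the members, 15 over those called lower, 34 over those called higher and 31 over those not called. These are counts of letters in the window and were not tested.

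In Tau mice compared with WT mice, 11 of the 46 tested members were called, against 9.81% of all genes tested. The 8 called lower were 4 of the genes entered as ligands (Bmp1, Bmp4, Bmp5, Bmp6), 3 latent TGF-beta binding proteins (Ltbp2, Ltbp3, Ltbp4) and the receptor Tgfbr2, where 6.1% of all genes were called lower. The 3 called higher were Tgfbr1, Smad3 and Id4, where 3.72% of all genes were called higher. The median log2 fold change was −0.29 over the 13 ligands and −0.58 over the 4 latent binding proteins, and lay between −0.11 and 0.05 in the other roles, beside −0.05 over all tested members and −0.0001 over all genes. Without Tau replicate 2 the ligand median was −0.07. The lowest adjusted p among the members was 0.187, for Ltbp3. Adjusted p was under 0.05 for 0.157% of all genes, and the unadjusted p for 11 members and 12.4% of all genes. The CPM ranges of the groups did not overlap for 23 of the 46 members, against 43.2% of all genes.

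**Figure D2:**
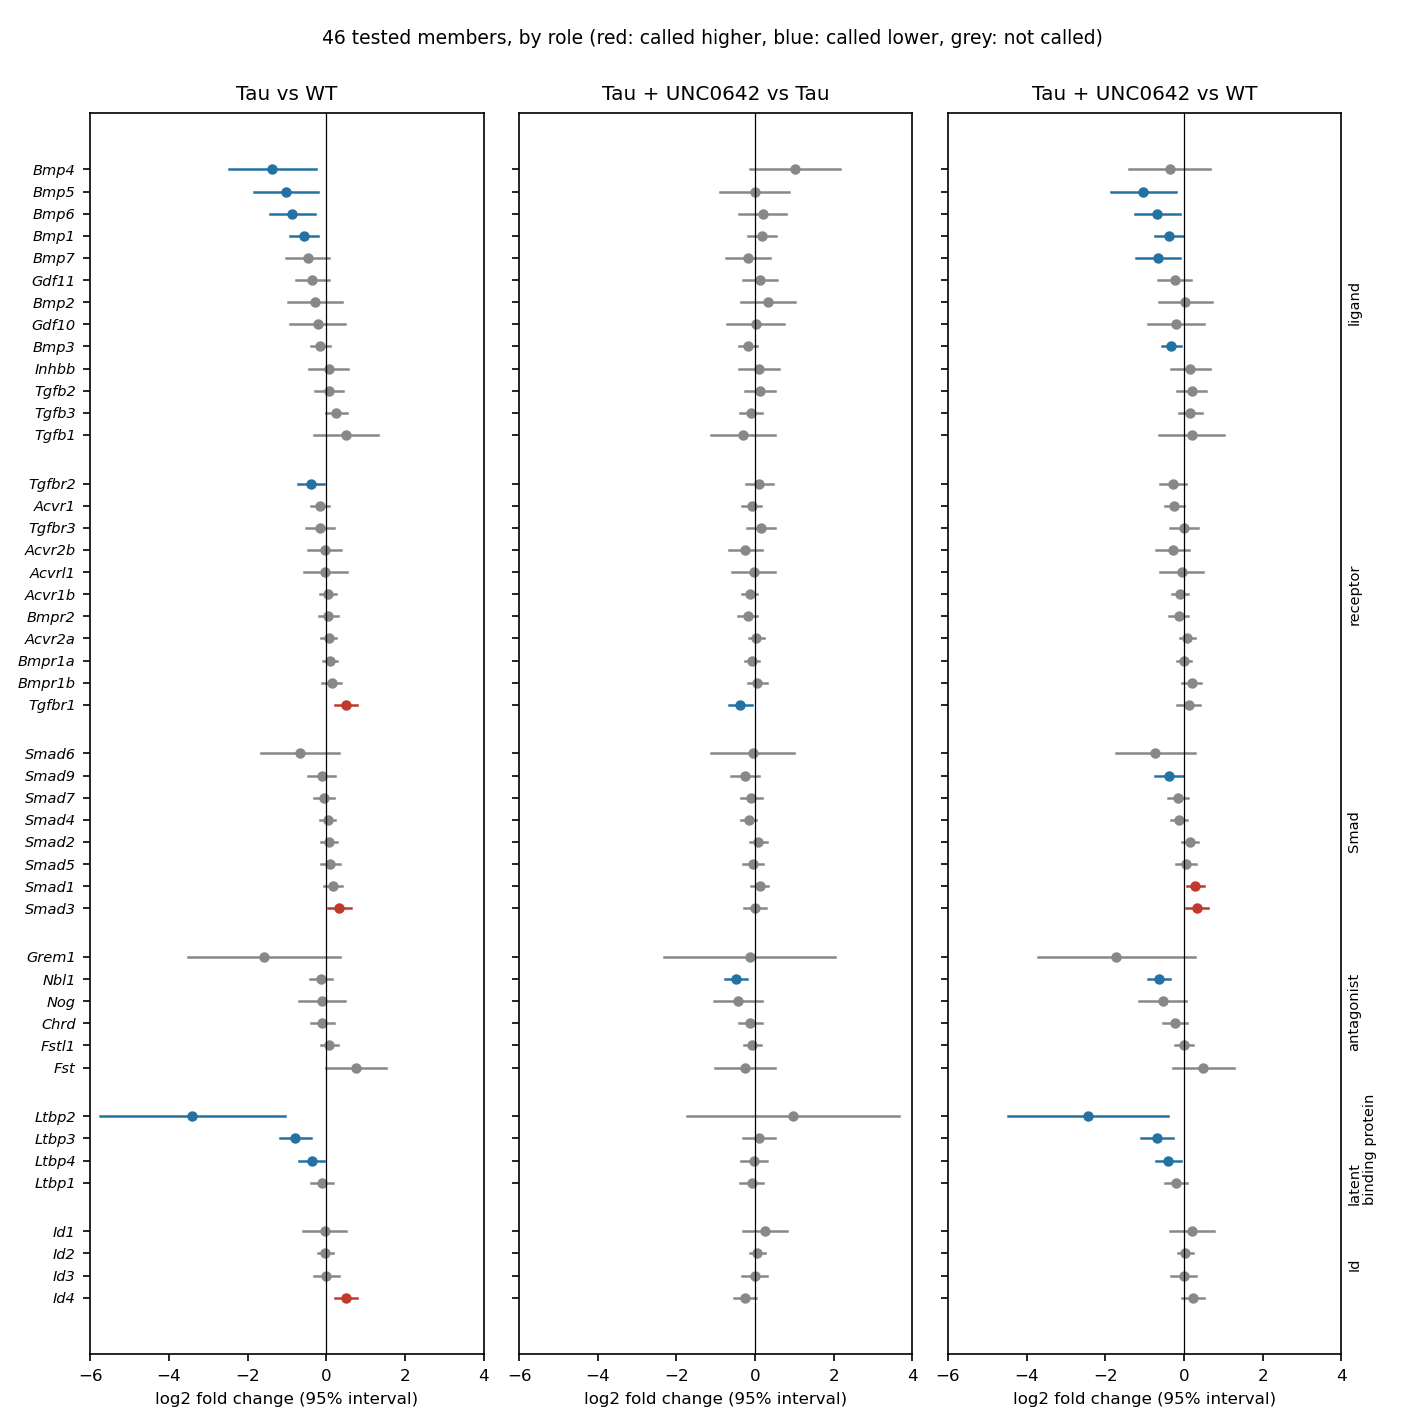
Log2 fold change with its 95% interval for the 46 tested members in the 3 comparisons, grouped by role and ordered by the value in Tau versus WT, with called genes in red (higher) or blue (lower). The blue points in Tau versus WT lie among the ligands, the latent binding proteins and Tgfbr2, and 2 genes, Tgfbr1 and Nbl1, were called between UNC0642-treated and vehicle-treated Tau mice.

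Bmp6, a BMP ligand known from endothelial cells, was at 6.90 and 7.77 CPM in the WT libraries, 4.97 and 2.92 CPM in the Tau libraries and 4.85 and 4.32 CPM in the UNC0642 libraries. All 4 transgenic libraries lay below both WT libraries. Its log2 fold change in Tau mice was −0.87 (SE 0.26, adjusted p = 0.27, edgeR). Bmp5, another BMP ligand, was at 2.56 and 1.80 CPM in WT, 1.00 and 1.15 CPM in Tau and 1.07 and 1.06 CPM in UNC0642 libraries, and was called lower by −1.03 (SE 0.37, adjusted p = 0.325, edgeR). The Bmp5 call was lost by DESeq2's Wald test, without the library labelled WT replicate 1 (log2 fold change −0.75) and without Tau replicate 1, while the Bmp6 call was lost without Tau replicate 2 (−0.56) and held without either WT library.

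Bmp4, a BMP ligand that steers glial fate, was at 1.81 and 1.64 CPM in WT, 0.822 and 0.458 CPM in Tau and 1.90 and 0.838 CPM in UNC0642 libraries, from 8 to 46 counts per library. Both Tau libraries were below all other libraries, but UNC0642 replicate 2 was only just above Tau replicate 1. The log2 fold change was −1.38 (SE 0.50, adjusted p = 0.324, edgeR) in Tau versus WT mice and 1.01 (95% interval −0.13 to 2.16, adjusted p = 0.6, edgeR) in UNC0642-treated versus vehicle-treated Tau mice, which was not called. The 2 differences share the Tau libraries. The call in Tau mice was lost without the library labelled WT replicate 1 or without Tau replicate 2 (−1.06), and the difference after UNC0642 was 0.34 without UNC0642 replicate 1. Bmp4, Tgfbr1 and Postn are on lists that the study chose on these same libraries, so that their direction here is no independent evidence.

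Bmp1, listed with the BMPs but in fact a metalloproteinase that cleaves procollagen and chordin, was at 25.3 and 29.3 CPM in WT, 21.4 and 15.2 CPM in Tau and 21.3 and 20.6 CPM in UNC0642 libraries. Its WT libraries lay above all 4 others, and the log2 fold change in Tau mice was −0.57 (SE 0.16, adjusted p = 0.255, edgeR). The Bmp1 call held with each of the 6 libraries left out in turn, with values from −0.85 to −0.35. Bmp7 stood at 12.9 and 10.9 CPM in WT, 10.5 and 6.36 CPM in Tau and 6.22 and 8.73 CPM in UNC0642 libraries, where the difference of −0.48 on the log2 scale in Tau mice (adjusted p = 0.453, edgeR) was not called. Bmp3, the ligand with the highest level per length, was at 70.8 and 83.7 CPM in WT, 73.3 and 66.1 CPM in Tau and 64.4 and 59.6 CPM in UNC0642 libraries, so that WT and Tau libraries overlapped.

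None of the 3 TGF-beta ligands was called in any comparison. Tgfb1, the ligand that microglia depend on, was at 1.42 and 1.05 CPM in WT, 1.54 and 2.0 CPM in Tau and 1.42 and 1.41 CPM in UNC0642 libraries, from 24 to 43 counts each. The Tau libraries were highest, yet the 95% interval of the log2 fold change ran from −0.31 to 1.32 in Tau versus WT and from −1.13 to 0.51 after UNC0642. Tgfb2 was at 9.11 and 8.63, 10.2 and 8.30, and 9.71 and 10.6 CPM in WT, Tau and UNC0642 libraries, with overlapping WT and Tau groups. Tgfb3 was at 14.2 and 15.5, 17.4 and 18.3, and 17.5 and 15.9 CPM in the same order, and differed by 0.26 on the log2 scale between Tau and WT (95% interval −0.02 to 0.54, adjusted p = 0.429, edgeR). The other 4 ligands, Bmp2, Gdf10, Gdf11 and Inhbb (the activin beta B subunit), had log2 fold changes of −0.35 to 0.06 in Tau mice, and none was called.

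**Figure D3:**
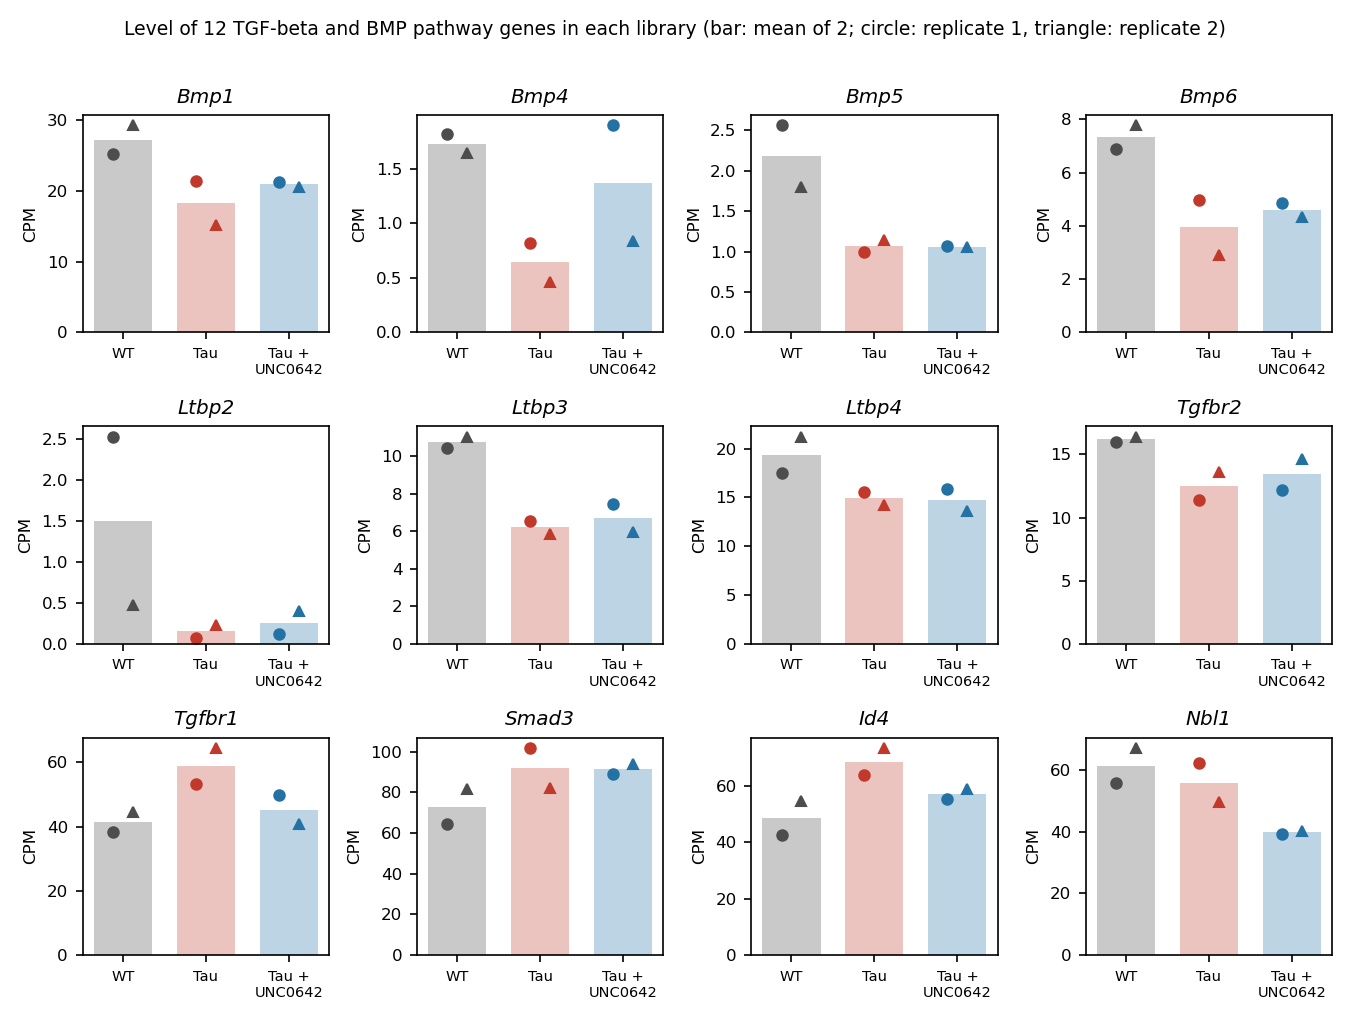
CPM of 12 members in each library, with bars at the mean of the 2 libraries of a group and a point for each library (linear axes from 0). Bmp1, Bmp6, Ltbp3 and Ltbp4 were lower in all 4 transgenic libraries than in both WT libraries, Tgfbr1 and Id4 were highest in the Tau libraries, and Nbl1 was lowest in the UNC0642 libraries.

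Of the 4 latent binding proteins, Ltbp3, Ltbp4 and Ltbp2 were called lower in Tau mice and Ltbp1 was not called. Ltbp3, needed for the secretion and matrix storage of latent TGF-beta, was at 10.4 and 11.1 CPM in WT, 6.58 and 5.84 CPM in Tau and 7.46 and 5.95 CPM in UNC0642 libraries, from 102 to 283 counts. All 4 transgenic libraries were below both WT libraries, and the mean was 10.8 ± 0.429 CPM in WT and 6.21 ± 0.522 CPM in Tau mice (SD, n = 2). The log2 fold change was −0.79 (SE 0.18, adjusted p = 0.187, edgeR) in Tau mice, and the call held with each library left out in turn, with values from −0.88 to −0.70. Ltbp4, a partner of TGF-beta1 and of elastic fibres, was at 17.5 and 21.2 CPM in WT, 15.6 and 14.2 CPM in Tau and 15.9 and 13.6 CPM in UNC0642 libraries. It was called lower by −0.37 (SE 0.14, adjusted p = 0.354, edgeR), and that call was lost without WT replicate 2 (−0.22) or Tau replicate 2.

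Ltbp2, which is a microfibril protein that binds no latent TGF-beta, rested on few counts. It had 64 and 12 counts in the WT libraries, 2 and 4 in the Tau libraries and 2 and 9 in the UNC0642 libraries, or 2.52 and 0.469, 0.0715 and 0.229, and 0.118 and 0.397 CPM. The library labelled WT replicate 1 was far above all others. Summed over libraries, the ratio of Tau to WT was 0.0886 (95% exact binomial interval 0.0315 to 0.202, counting error only), and the fitted log2 fold change was −3.40 (95% interval −5.77 to −1.04, adjusted p = 0.258, edgeR). Without that library the value was −1.72 and was not called. Ltbp1 was at 15.4 to 19.5 CPM over the 6 libraries, with a log2 fold change of −0.12 (95% interval −0.40 to 0.16).

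Of the receptors, the 2 subunits of the TGF-beta receptor were called in opposite directions in Tau mice. Tgfbr1, the type I receptor, was at 38.4 and 44.4 CPM in WT, 53.1 and 64.5 CPM in Tau and 49.7 and 40.8 CPM in UNC0642 libraries. Both Tau libraries were above all others, and the UNC0642 libraries overlapped the WT libraries. The log2 fold change was 0.50 (SE 0.13, adjusted p = 0.234, edgeR) in Tau mice, with values from 0.36 to 0.64 and the call kept with each library left out in turn. Tgfbr2, the type II receptor that binds the ligand first, was at 16.0 and 16.4 CPM in WT, 11.4 and 13.6 CPM in Tau and 12.2 and 14.6 CPM in UNC0642 libraries. It was called lower by −0.38 (SE 0.15, adjusted p = 0.361, edgeR), and the call was lost by DESeq2's Wald test, without either WT library or without Tau replicate 1 (−0.25).

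The other 9 receptors had log2 fold changes of −0.16 to 0.15 in Tau mice, and none was called. Acvr1b, the receptor with the highest level per length, was at 154.5 and 167 CPM in WT, 177 and 154 CPM in Tau and 147 and 154 CPM in UNC0642 libraries, with overlapping groups and a 95% interval of −0.16 to 0.24 for Tau versus WT. The BMP receptors Bmpr1a and Bmpr2 had intervals of −0.08 to 0.27 and −0.19 to 0.30.

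Among the Smads, Smad3, which carries TGF-beta and activin signals, was at 64.6 and 81.5 CPM in WT, 101.8 and 82.3 CPM in Tau and 88.9 and 94.0 CPM in UNC0642 libraries. The 4 transgenic libraries were above both WT libraries, but Tau replicate 2 was only just above WT replicate 2. The log2 fold change of 0.34 (SE 0.13, adjusted p = 0.348, edgeR) was called, and the call was lost without the library labelled WT replicate 1 or without Tau replicate 1 (0.17). The other 7 Smads were not called in Tau mice. Smad1 was at 27.4 and 28.8, 31.7 and 31.4, and 34.3 and 34.2 CPM in WT, Tau and UNC0642 libraries, and Smad9 at 18.2 and 20.4, 19.7 and 15.7, and 16.5 and 13.1 CPM. The 2 libraries of each group were close for Smad1, whereas the WT and Tau libraries overlapped for Smad9.

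Of the 6 antagonists tested, none was called in Tau mice. Nbl1, which binds BMPs outside the cell, was at 55.7 and 67.1 CPM in WT, 62.1 and 49.6 CPM in Tau and 39.4 and 40.3 CPM in UNC0642 libraries. WT and Tau overlapped, and the UNC0642 libraries were below all 4 others. Grem1, gremlin, is added here after its values were seen: the library labelled WT replicate 1 was at 4.30 CPM and the other 5 at 0.312 to 0.882 CPM, so that the difference of −1.59 (log2) in Tau mice (adjusted p = 0.484, edgeR) was 1.26 without that library. Nog, Chrd and Fstl1 had log2 fold changes of −0.11, −0.11 and 0.07, and Fst one of 0.75 (95% interval −0.02 to 1.52).

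Of the 4 Id genes, Id4, known from neural stem cells and astrocytes, was at 42.7 and 54.6 CPM in WT, 63.9 and 73.5 CPM in Tau and 55.4 and 58.9 CPM in UNC0642 libraries. Both Tau libraries were above all others, and the UNC0642 libraries lay between them and the WT libraries. The log2 fold change in Tau mice was 0.50 (SE 0.12, adjusted p = 0.211, edgeR), from 0.33 to 0.69 with each library left out in turn, and the call was kept each time. Id2, the Id gene with the highest level per length, was at 79.6 and 71.4 CPM in WT, 76.5 and 72.2 CPM in Tau and 76.9 and 78.0 CPM in UNC0642 libraries. Its Tau libraries lay within the range of its WT libraries, and the intervals for Id1, Id2 and Id3 in Tau mice all contained 0, the narrowest being −0.22 to 0.17 for Id2.

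**Figure D4:**
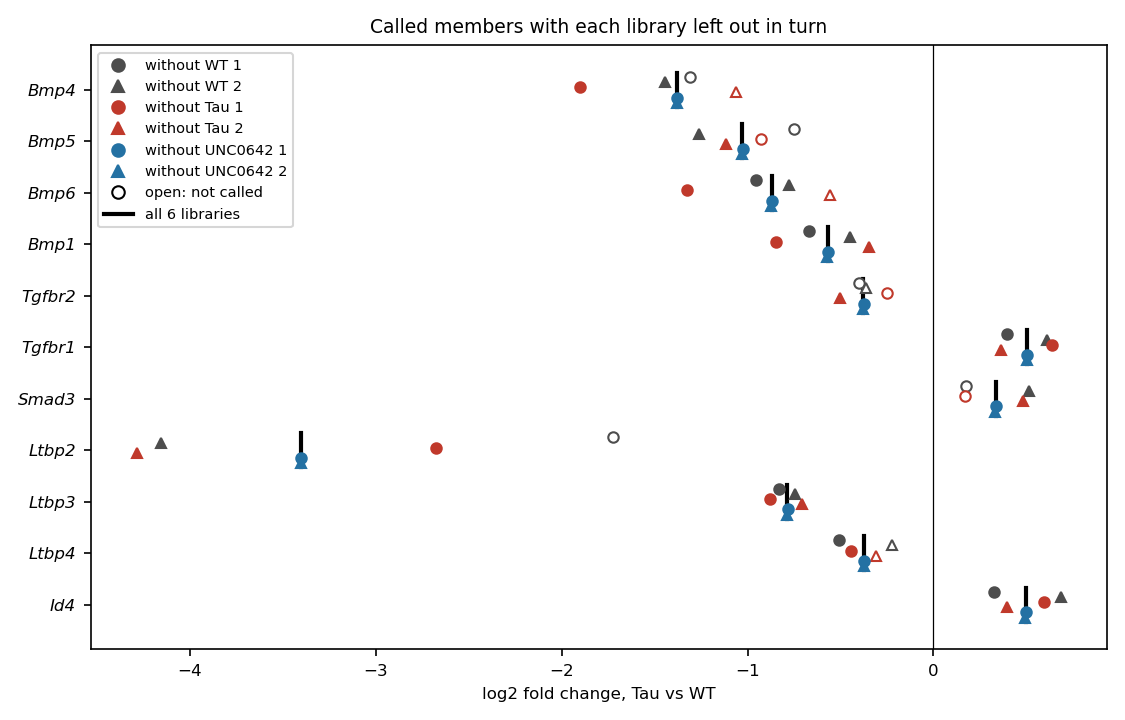
Log2 fold change in Tau versus WT for the 11 called members with all 6 libraries (black bar) and with each library left out in turn (points, open where the gene was no longer called). Bmp1, Tgfbr1, Ltbp3 and Id4 were called in all 6 refits, and Ltbp2 moved most, from −4.29 to −1.72.

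Thus Bmp1, Ltbp3, Tgfbr1 and Id4 were the 4 members called in Tau mice with every library left out in turn, and Bmp6 and Ltbp4 were also called without the library labelled WT replicate 1. In that fit, in which the Tau and WT libraries had 1 Xist pattern, 9 members were called, 6 of the 11 above and also Bmp3, Fst and Smad5, against 9.03% of all genes tested in that fit. The annotation places a gene on the other strand over 6 of the 11 called members (Bmp4, Bmp5, Bmp6, Ltbp2, Ltbp3, Id4) and over 18 of all 47 members. The library kit kept strand, but the strand setting of the counting is not given in the sources used here, so that reads of such pairs may not have been told apart. Bmp1, Tgfbr1, Tgfbr2, Smad3 and Ltbp4 had no such overlap, while Bmp5 was also overlapped by a gene on its own strand, Gm47723.

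Cell type markers moved with several of these genes, and their part in the results was not tested. The summed level of 10 endothelial markers was 241 to 249 CPM in WT, 178 to 183 CPM in Tau and 175 to 230 CPM in UNC0642 libraries, and 6 of the 10 were called lower in Tau mice. The sum of 9 mural markers was 225 to 229, 208 to 211 and 183 to 192 CPM, with 2 called lower and 1 higher in Tau mice. The sum of 14 leptomeningeal fibroblast markers, of which 13 were tested, was 367 to 582, 314 to 425 and 407 to 452 CPM, with 5 called lower. The highest single marker, at 256 to 460 CPM over the libraries, made up most of each of these sums. In Tau versus WT mice, these 3 lists stood beside the lower Bmp5, Bmp6, Tgfbr2 and latent binding proteins, although the fibroblast sums of WT and Tau libraries overlapped. Against vehicle-treated Tau mice, 1 endothelial and 2 fibroblast markers were called higher after UNC0642 and 3 mural markers lower. The latent binding proteins, Bmp5, Bmp6 and Tgfbr2 were not called in that comparison.

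In the direction of Tgfbr1, the sum of 9 microglial markers was 368 to 395 CPM in WT, 442 to 458 CPM in Tau and 394 to 418 CPM in UNC0642 libraries, with 3 called higher against WT and 1 called lower against vehicle-treated Tau mice. The sum of 7 oligodendrocyte progenitor markers was 187 to 217, 226 to 334 and 183 to 190.3 CPM, with 2 called higher and 4 called lower in those comparisons. Tau replicate 2 had the highest sum of 10 oligodendrocyte markers, 5794 CPM against 1526 to 3093 CPM in the other 5 libraries. Of these markers, 4 were called higher in Tau versus WT mice and 2 lower after UNC0642. The 8 astrocyte markers summed to 4772 to 5447 CPM and the 8 neuronal markers to 6779 to 7559 CPM over the 6 libraries, with 1 astrocyte and 0 neuronal markers called in Tau mice. Choroid plexus markers summed to 4.14 to 13.8 CPM, and Ttr, Folr1 and Otx2 were at 0 in at least 1 library.

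**Figure D5:**
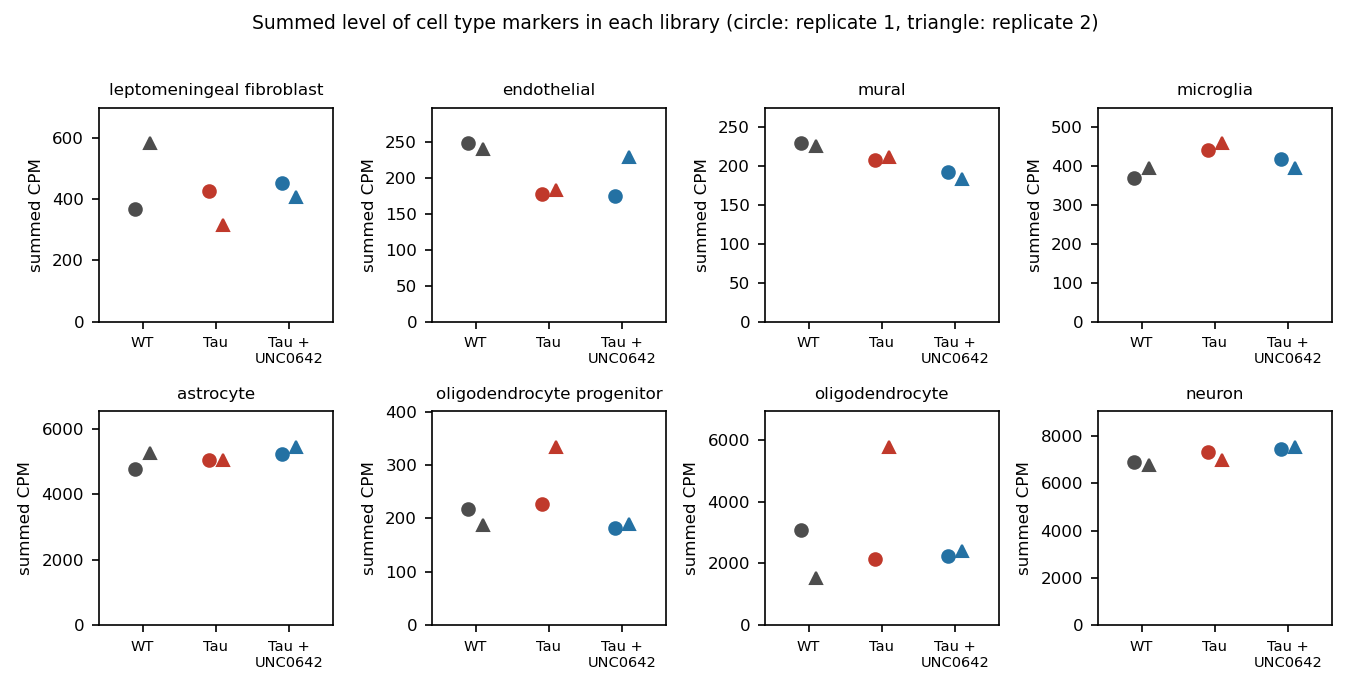
Summed CPM of the markers of 8 cell types in each library (linear axes from 0). Endothelial sums were lower and microglial sums higher in both Tau libraries than in both WT libraries, and Tau replicate 2 stood apart for oligodendrocyte markers at 5794 CPM.

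In UNC0642-treated compared with vehicle-treated Tau mice, 2 of the 46 members were called, Tgfbr1 and Nbl1, both lower, or 4.35% of the members against 7.69% of all genes tested, of which 3.95% were called lower and 3.73% higher. Unadjusted p was under 0.05 for the same number of members and 8.86% of all genes, adjusted p for 0 members and 0.0196% of all genes, and the groups did not overlap for 17 members and 41.3% of all genes. The median log2 fold change was −0.04 over the members and −0.002 over all genes. Tgfbr1 was called lower by −0.38 (SE 0.13, adjusted p = 0.473, edgeR), from the same Tau libraries in which it was higher than in WT, and the call was lost without Tau replicate 2 (−0.24) or UNC0642 replicate 2. Nbl1 was called lower by −0.49 (SE 0.13, adjusted p = 0.388, edgeR), with 55.9 ± 8.81 CPM in Tau and 39.8 ± 0.637 CPM in UNC0642-treated mice (SD, n = 2), and it was called with every library left out in turn, from −0.64 to −0.32. With a term for the Xist pattern neither gene was called. Only the WT group held both Xist patterns, so that term rests on the difference between its 2 libraries. The fit therefore cannot separate treatment from the Xist pattern. Left without Tau replicate 1, the comparison called 7 members, Bmp1, Bmp2, Bmp4 and Bmp6 higher and Tgfbr1, Nbl1 and Id4 lower, against 6.37% of all genes tested in that fit.

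Apart from Bmp4, which is described above, the genes called lower in Tau mice gave these values after UNC0642. The 95% intervals of the log2 fold change were −0.17 to 0.54 for Bmp1, −0.89 to 0.87 for Bmp5, −0.40 to 0.78 for Bmp6, −0.23 to 0.45 for Tgfbr2, −0.31 to 0.51 for Ltbp3 and −0.35 to 0.31 for Ltbp4. For the other genes called higher in Tau mice, Smad3 gave −0.29 to 0.27 and Id4 −0.54 to 0.01. All of these intervals contained 0, and those of Bmp5, Bmp6, Ltbp3, Ltbp4 and Smad3 were wide enough to hold changes of over 1.2-fold either way. Ltbp2, at few counts, had an interval of −1.72 to 3.65. The Tau and UNC0642 libraries overlapped for all of these genes but Id4, whose UNC0642 libraries were both below its Tau libraries.

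In UNC0642-treated Tau mice compared with WT mice, 12 members were called, against 9.47% of all genes tested. The 10 called lower were Bmp1, Bmp3, Bmp5, Bmp6, Bmp7, Smad9, Nbl1, Ltbp2, Ltbp3 and Ltbp4, where 5.69% of all genes were called lower, and the 2 called higher were Smad1 and Smad3, where 3.77% were called higher. The median log2 fold change was −0.13 over the members, −0.24 over the ligands and −0.54 over the latent binding proteins, beside −0.01 over all genes. Unadjusted p was under 0.05 for 13 members and 12.1% of all genes, adjusted p for 0 members and 0.216% of all genes, and the groups did not overlap for 29 members and 44.4% of all genes. The comparison shares the WT libraries with that of Tau and WT mice, so that genes called in both do not count as repeated evidence.

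Nbl1 had the lowest p of the members, with a log2 fold change of −0.62 (SE 0.13, adjusted p = 0.0976, edgeR), and Ltbp3 followed with −0.69 (SE 0.18, adjusted p = 0.187, edgeR). These 2 genes were called with every library left out in turn, which includes the fit without WT replicate 2 in which both groups had 1 Xist pattern. The WT group of that fit is only the library labelled WT replicate 1, whose genotype is not settled. Bmp3 was lower by −0.32 (adjusted p = 0.276), Bmp7 by −0.66 (adjusted p = 0.328), Smad9 by −0.39 (adjusted p = 0.372) and Bmp6 by −0.68 (adjusted p = 0.335) in edgeR's fit, and each lost its call without 2 of the libraries. Without the library labelled WT replicate 1, 8 members were called, against 9.02% of all genes in that fit, and Bmp5, Bmp7, Ltbp2, Smad1 and Smad3 were not among them. Smad1 was higher by 0.29 (SE 0.10, adjusted p = 0.293, edgeR), and Acvr1, the BMP type I receptor ALK2, passed the p threshold with a change under 1.2-fold and was not called.

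A further 64 pathway genes were listed, of which 45 were tested. In Tau mice 7 of them were called, which was 15.6%, beside the 9.81% of all genes. Lrrc32, which displays latent TGF-beta on the cell surface, and Postn, a matrix protein induced by TGF-beta, were called lower, by −0.90 and −1.15. The Lrrc32 call was lost without WT replicate 2 (−0.48) or without either Tau library, while the Postn call held with each library left out in turn. Itgb5, the integrin beta 5 subunit, Smurf1, a ubiquitin ligase for Smads, and Skil, the Smad corepressor SnoN, were called higher by 0.28, 0.33 and 0.40. Without Tau replicate 1 the Itgb5 call was lost (0.26). Klf10, a transcription factor gene induced by TGF-beta, was called higher by 0.36. Skil was at 166 and 168 CPM in WT, 225 and 217 CPM in Tau and 226 and 223 CPM in UNC0642 libraries, and its adjusted p in Tau mice was 0.076 by edgeR. Its transgenic libraries were all above both WT libraries.

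After UNC0642, 5 of the 45 were called relative to vehicle-treated Tau mice, which was 11.1% beside the 7.69% of all genes. Inhba, the activin beta A subunit that neuronal activity induces, was at 21.1 and 19.8 CPM in WT, 16.3 and 18.0 CPM in Tau and 24.6 and 25.4 CPM in UNC0642 libraries and was called higher by 0.55 (adjusted p = 0.279, edgeR). The UNC0642 libraries were above all others. Postn and Klf10 were called higher by 0.79 and 0.33, and Lefty1, at 4 to 21 counts, and Pmepa1, an inhibitor of TGF-beta signalling, lower by −1.69 and −0.42. The Postn call was lost without Tau replicate 2 (0.36) or UNC0642 replicate 2, and that of Klf10 without UNC0642 replicate 1 (0.17). Lefty1 lost its call without Tau replicate 2 or either UNC0642 library, and Pmepa1 without either Tau library or UNC0642 replicate 2. Inhba kept its call here with each library left out in turn. Klf10 was at 55.0 and 55.2 CPM in WT, 72.3 and 69.5 CPM in Tau and 99.0 and 79.8 CPM in UNC0642 libraries, and its groups did not overlap. Against WT mice, Klf10 was higher by 0.70 in UNC0642-treated mice, with an adjusted p of 0.0355 by edgeR with all 6 libraries. In that fit it was the only gene of the 46 members and 45 further genes tested that was under 0.05 in any of the 3 comparisons. With a library left out, that difference from WT mice ran from 0.54 to 0.84, and its adjusted p did not stay under 0.05 each time. Inhba and Skil were also called higher in that comparison and Tll1 and Hipk2 lower, with Tll1 at 5.32 CPM in the library labelled WT replicate 1 and 1.19 to 2.46 CPM in the other 5. Without that library neither Tll1 (−0.07) nor Hipk2 (−0.27) was called against WT, and Itgb5 (0.19) was not called in Tau mice, while Skil and Klf10 kept their calls. The Inhba call against WT was lost without WT replicate 2 (0.24) or without either UNC0642 library.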

How the data were processed

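The authors sequenced ribosomal RNA-depleted, strand-specific libraries and deposited raw counts per gene for each of 6 libraries. Per the labels, reads were trimmed with Cutadapt and aligned with TopHat2, and featureCounts and the build mm10 are named in the submitters' processing notes. The strand setting of the counting is not given in the sources used here. Files were joined by row, since 26 gene names had turned into dates in 2 of them.

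The threshold for a call (unadjusted p under 0.05, fold at least 1.2) is the one the study used. Counts were filtered with filterByExpr (20409 genes), TMM-scaled and fitted with edgeR 4.0.16 in R 4.3.3 (glmQLFit, 1 mean per group, all 6 libraries, 3 residual degrees of freedom). The biological coefficient of variation was 12.3%. The method was first tested on simulated data. Alternatives were DESeq2 1.42.0, other filters and scalings, 4-library fits, a replicate block, a term for the Xist pattern and leaving out each library.

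The members and lists were chosen with earlier results of these data known. Values in every library are given for each member called in at least 1 comparison, for Bmp4, Tgfb1 and Tgfbr1, for Tgfb2, Tgfb3, Bmp6 and Bmp7, and for the member of each role with the highest level per length. Other pathway genes are named where called, except 1 that is not reported here. Exon lengths and positions are from GENCODE M21 (GRCm38). Per the labels the 2 samples of a group are biological duplicates, so p-values measure the spread between 2 libraries per group. Intervals on counts cover counting error only.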

Additional observations from a re-analysis of the deposited data

How the results depend on the processing

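At an adjusted p under 0.05 over all genes, 0 members were called in each of the 3 comparisons by edgeR with all 6 libraries, where 11, 2 and 13 members had an unadjusted p under 0.05. DESeq2's Wald test gave 1 (Id4), 0 and 1 (Nbl1) at that adjusted threshold, and edgeR without a filter on low counts 7, 1 and 5. Without WT replicate 2, edgeR gave 2 (Grem1, Id4) in Tau versus WT and 1 (Grem1) in UNC0642-treated versus WT mice. By fold and unadjusted p, DESeq2's Wald test lost Bmp5 and Tgfbr2 in Tau versus WT and Bmp5 in UNC0642-treated versus WT mice. Over all genes tested, DESeq2's Wald test called 1322 genes in Tau versus WT mice by the fold and unadjusted p, where edgeR called 2003. With a term for the Xist pattern, 7 members and 9.21% of all genes were called in Tau versus WT mice, and Bmp4, Bmp5, Tgfbr2, Smad3 and Ltbp2 were not among them. With each library left out in turn, the number called was 8 to 12 in Tau versus WT, 2 to 7 in UNC0642-treated versus vehicle-treated Tau mice (7 without Tau replicate 1) and 6 to 12 in UNC0642-treated versus WT mice (6 without either UNC0642 library). The share of all genes called is not set beside each of these counts, so they describe the members alone. The median log2 fold change of the members ran from −0.10 to 0.02, −0.07 to −0.04 and −0.13 to −0.06 in the same fits. The ligand median in Tau versus WT was −0.48 without Tau replicate 1 and −0.07 without Tau replicate 2. The median of all members turned positive in Tau versus WT without Tau replicate 2, and it was 0.04 after UNC0642 with the Xist term. Grem1 in Tau versus WT changed direction, to 1.27 with the Xist term and to 1.26 without the library labelled WT replicate 1, while it was −2.48 and called without WT replicate 2. With the Xist term, the Tau libraries are in effect compared with WT replicate 2 alone, the only WT library of their Xist pattern. For Tau versus WT, that setting and the fit without the library labelled WT replicate 1 are therefore not separate checks. After UNC0642, the term rests on the difference between the WT libraries. The cause of these changes was otherwise not tested.

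With the replicate number as a block, the paired fit called the same members as the main fit. It also called Gdf11 lower in Tau versus WT mice and Id4 lower after UNC0642. The medians of the members were −0.05, −0.03 and −0.13 in the 3 comparisons. The numbers did not pair the libraries, since the differences between replicates 1 and 2 correlated between groups at −0.05, −0.03 and −0.01. Ltbp2, Bmp4, Grem1 and Fstl3, each with under 10 counts in at least 1 library, were limited by depth.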
